A study of Mus musculus with 2 samples.

Results

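Shores are the flanks of CpG-dense stretches of the genome. Here a CpG-dense run was an autosomal stretch of 20 or more CpG cytosines listed in the RRBS (reduced representation bisulfite sequencing) table with no gap over 50 bp between neighbours, and its shores were the listed cytosines outside every run but within 2 kb of a run's edge. There were 16190 runs, and 160465 of the 1756096 autosomal cytosines (9.14%) lay in shores. In mammals, CpG islands are CpG-dense stretches that mark many promoters and are usually kept free of DNA methylation, whereas most CpGs elsewhere are methylated. Shores are the transition between these states, and their methylation is known to differ between tissues and in reprogramming. Naive mESCs in 2i/LIF, a medium that inhibits MEK and GSK3, carry little DNA methylation genome-wide, and XX mESCs carry less than XO or XY mESCs.

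Both groups came from female Xmas mESCs of strain C57/Bl6, in which the Hprt promoter drives GFP from 1 X chromosome and mCherry from the other. They were kept in 2i/LIF by the study's modified culture method (7 passages in the sample labels, longer in the paper's text) and sorted by FACS into XX cells, with both reporters, and XO cells, which have lost an X chromosome. Each karyotype gave 1 library from 1 cell line, so no difference below has a replicate error and none was tested. The spread over the 19 autosomes is given instead, and it describes how even a difference was along the genome, not how it would vary between cultures. The methylation level of a cytosine is the percent of its reads that were methylated. Read depth is not given in the sources used here, so the number of reads behind a 0% or 100% is unknown.

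The values of single shores are easiest to see on their sequences. RRBS reads start at a cut site of the enzyme MspI (CCGG), and all cytosines read from 1 start share those reads. The stretches below hold every listed cytosine of a run side (the shore on 1 side of a run), and were taken from sides with the largest differences between libraries. They are on the forward strand of GRCm38, 5′ to 3′, in lower case. A capital C is a listed cytosine of the forward strand, and a capital G is a listed cytosine of the reverse strand.
Rbm15b, chr9:106885957-106886058: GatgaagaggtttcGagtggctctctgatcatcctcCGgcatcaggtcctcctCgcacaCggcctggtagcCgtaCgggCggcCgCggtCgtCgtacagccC
Crybg3, chr16:59600349-59600591: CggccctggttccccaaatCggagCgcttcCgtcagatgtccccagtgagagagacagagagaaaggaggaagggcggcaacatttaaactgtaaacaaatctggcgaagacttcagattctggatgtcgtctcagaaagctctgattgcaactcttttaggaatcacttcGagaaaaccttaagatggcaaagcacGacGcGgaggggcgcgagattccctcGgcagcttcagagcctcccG
Ripk4, chr16:97763792-97763932: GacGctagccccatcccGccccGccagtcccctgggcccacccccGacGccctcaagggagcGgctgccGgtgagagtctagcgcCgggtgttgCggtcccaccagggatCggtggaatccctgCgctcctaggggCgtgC
Prrx1, chr1:163312016-163312232: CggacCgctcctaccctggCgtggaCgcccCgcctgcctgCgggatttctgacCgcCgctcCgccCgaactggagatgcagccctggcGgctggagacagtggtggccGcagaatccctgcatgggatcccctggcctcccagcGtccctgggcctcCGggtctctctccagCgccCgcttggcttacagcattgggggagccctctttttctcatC
Ndufb2, chr6:39592797-39592978: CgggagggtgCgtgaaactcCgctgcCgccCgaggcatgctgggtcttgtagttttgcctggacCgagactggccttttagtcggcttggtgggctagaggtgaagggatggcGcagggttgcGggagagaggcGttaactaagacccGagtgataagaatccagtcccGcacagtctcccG

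Beside Rbm15b, which encodes an RNA-binding protein of the complex that deposits m6A on RNA, all 11 forward cytosines were at 0% in XX cells and between 38.5% and 76.9% in XO cells, and all 3 reverse cytosines were at 33.3% and 61.9%. In the shore inside Crybg3 the 4 forward cytosines lay between 40% and 46.7% in XX cells and between 46.7% and 66.7% in XO cells, and the 6 reverse ones between 0% and 10% against 50% to 75%. Beside Ripk4, a kinase gene of epidermal differentiation, the order was opposite, with 8 reverse cytosines at 35.3% to 41.2% in XX cells and at 0% in XO cells. Its 6 forward cytosines lay between 30.8% and 76.9% in XX cells and between 26.3% and 42.1% in XO cells, 1 of them lower in XX cells. In an intron of Prrx1, a homeobox gene of mesenchyme, the 4 reverse cytosines were at 58.3% in XX cells and at 0% in XO cells, and the 14 forward ones lay between 16.7% and 52.9% in XX cells and between 0% and 53.8% in XO cells, 1 of them lower in XX cells. Beside Ndufb2, a subunit gene of respiratory complex I, the 6 forward cytosines were alike in the libraries (11.4% to 20% in XX cells, 14.3% to 19% in XO cells) and only the 6 reverse ones differed (64.3% to 69.2% against 0% to 21.4%).

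These runs of equal values were general. The 160465 shore cytosines traced back to 49624 read starts, taken as the nearest MspI site before the cytosine on its strand, with a median of 3 cytosines a start. Of 110841 neighbouring pairs that shared a start, 54.4% had exactly equal values in XX cells and 53.7% in XO cells. A shore side therefore holds fewer independent readings than cytosines, and 9.09% of the 10748 sides with at least 5 cytosines rested on 1 read start.

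The sequence matched the name of the runs but only in part that of the shores. On average 23.3 CpGs lay within 100 bp of a cytosine inside the runs, 12.3 in the shores and 6.55 farther out, and the GC content was 71.4%, 60.2% and 53.2%. Shores were nevertheless mixed, since 41.2% of their cytosines still had 13 or more CpGs within 100 bp, against 93.7% in the runs and 8.25% beyond 2 kb. The run edge is the place where the listing stops, and CpG-dense DNA often continued past it. Of the runs, 12492 (77.2%) had a gene start within 1 kb and are called near, and the other 3698 are called away. The median run was 267 bp long with 39 listed cytosines and a mean methylation of 4.82% in XX cells and 5.77% in XO cells. Shore cytosines were listed beside 11741 runs and none beside 4449, 65.1% of them lay within 500 bp of the edge, and by the rule none lay within 50 bp.

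Shore methylation was low in both libraries, above that of the runs and below that of the rest of the genome. Shore cytosines averaged 16.9% in XX cells and 20.9% in XO cells, a difference (XX minus XO) of -4.02 points. Inside the runs the means were 5.88% and 7.06% (-1.18 points), and beyond 2 kb they were 29.8% and 45.9% (-16.1 points). XX cells thus carried 80.8% of the XO level in shores, 83.3% in runs and 64.9% beyond. The shore difference was negative on 19 of 19 autosomes, from -4.86 points on chromosome 13 to -2.42 points on chromosome 16 (SD 0.513). Cytosines at 0% made up 28.8% of the shores in XX cells and 29.2% in XO cells, and those at 80% or more made up 1.96% and 3.46%.

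Methylation climbed with distance from the run, and faster in XO cells. Bins of 100 bp are named by their limits, the lower one excluded. At 50 to 100 bp the means were 13.1% in XX cells and 15.2% in XO cells. Between 100 and 500 bp they were nearly level, at 15.4% to 15.9% in XX cells and 17.9% to 18.9% in XO cells. From there both climbed, to 19.8% and 25.8% at 900 to 1000 bp. At 1400 to 1500 bp the XX mean was 21.3% and the XO mean 31.3%. In the last 100 bp before 2 kb they were 25.3% and 35.1%, still under the levels beyond. Measured from the mean inside the runs to the mean beyond 2 kb, 81.3% of the way was covered at 2 kb in XX cells and 72.1% in XO cells. Inside the runs, cytosines at 0 to 24 bp from an edge averaged 8.25% in XX cells and 9.73% in XO cells. Those at 200 bp or more from it averaged 4.26% and 4.98%. Only long runs hold such inner cytosines (the upper quartile of run length was 387 bp), and their CpGs were denser (26.4 against 21.3 within 100 bp). Run length and position in the read were not held fixed, so a climb within single runs was not tested. Just outside the rule, at 2000 to 2100 bp, the means were 23.2% and 34.5%.

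**Figure D1:**
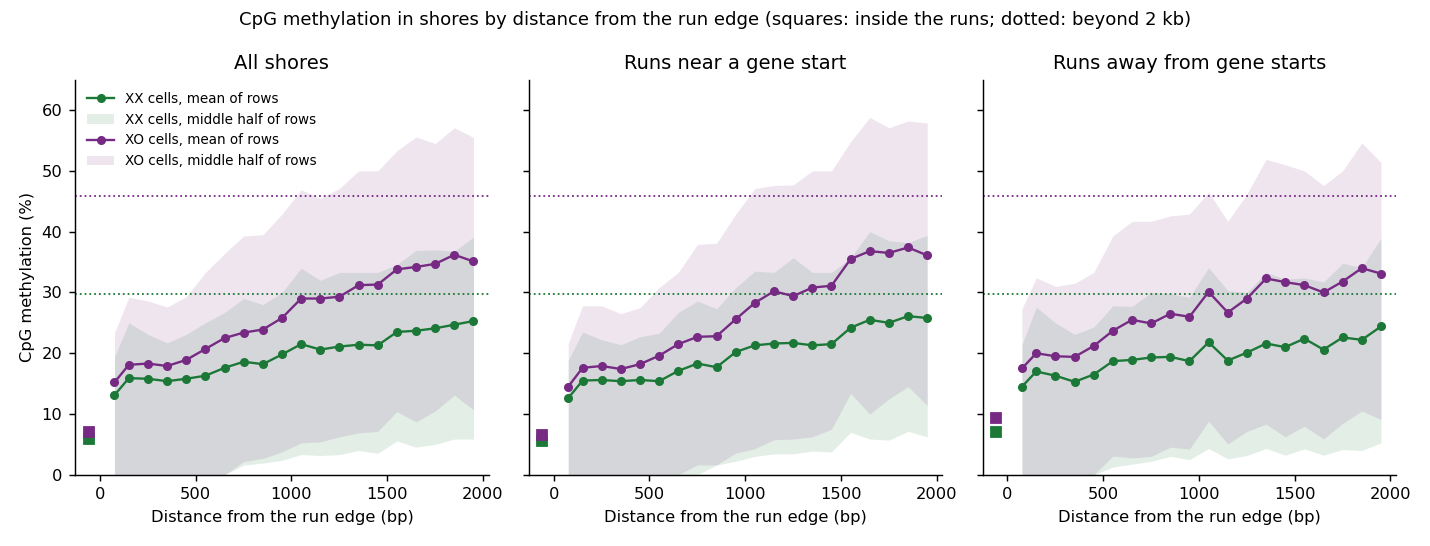
Mean CpG methylation (%) in XX and XO cells against distance from the run edge (bp, bins of 100 bp), for all shores, runs near a gene start and runs away from one, 1 library each. Points are means over cytosines, shading is the middle 50% of cytosines, squares are means inside the runs and dotted lines those beyond 2 kb (29.8% and 45.9%); the XO line pulls away from the XX line with distance.

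The XX-XO difference grew along the shore in points and also relative to the XO level. It was -2.13 points at 50 to 100 bp, -3.11 points at 400 to 500 bp, -6.01 points at 900 to 1000 bp and -11.5 points at 1800 to 1900 bp. XX cells kept 86.0% of the XO level in the first bin and 87.6% in the next, 78.7% at 500 to 600 bp, 74.2% at 1000 to 1100 bp and 68.2% at 1800 to 1900 bp. The lowest share was 67.9% at 1400 to 1500 bp, and in the last bin, 1900 to 2000 bp, the difference was -9.73 points and the share 72.2%. XX cells were lower in 20 of 20 bins, and on all 19 autosomes in 19 of them. The exception was 100 to 200 bp, where 18 of 19 autosomes were lower. Over broader stretches the difference was -2.42 points at 50 to 500 bp (autosome range -3.50 to -0.341), -5.0 points at 500 to 1000 bp (-6.54 to -4.15) and -9.42 points at 1000 to 2000 bp (-10.5 to -7.69). The ranges of the first and last stretch did not overlap.

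Single cytosines showed the same. XX cells were lower by 20 points or more at 25053 shore cytosines (15.6%), against 22.4% of all autosomal cytosines, 5.23% in runs and 41.5% beyond 2 kb. They were higher by 20 points or more at 10704 (6.67%), against 3.69% of all autosomal cytosines, 2.66% in runs and 4.13% beyond. The share lower by 20 points went from 12.4% at 50 to 500 bp to 27.2% at 1000 to 2000 bp, and the share higher by 20 points from 7.03% to 5.69%. Of runs, shores and the rest, shores thus had the largest share higher in XX cells when all listed cytosines were counted. Among CpGs listed on both strands, the reverse strand was higher by 20 points at 1.96% in shores, 1.96% beyond 2 kb and 0.945% in runs. By that count shores did not stand out from the rest.

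The strands of a CpG are read from different starts, so they give separate readings of the same site. Among 29819 shore CpGs listed on both strands, the forward strand was lower in XX cells by 20 points at 2560, and the reverse strand was too at 726 of them (28.4%, against 8.52% over all those CpGs). The forward strand was higher by 20 points at 613, and the reverse strand was too at 22 (3.59%, against 1.96% over all). Beyond 2 kb the corresponding shares were 53.8%, against 37.9% over all CpGs there, and 3.78%, against 1.96%. The mean difference was the same from either strand, -3.04 and -3.06 points. The median gap between the strands of a shore CpG was 3.55 points in XX cells and 4.65 points in XO cells, with an SD of 14.5 and 16.8 points.

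The position of a cytosine in its read moved with its level. Shore cytosines averaged 14.4% in XX cells and 17.3% in XO cells when 1 to 20 bases from the MspI site, and 22.2% and 26.3% at 61 to 75 bases. Inside the runs it went from 4.80% and 5.71% to 8.97% and 10.6%, whereas beyond 2 kb it went only from 28.6% and 43.7% to 31.1% and 46.0%. In the shores XX cells kept 83% to 84.6% of the XO level from 1 to 75 bases past the site. In the site itself they kept 73.7%, with means of 15.2% in XX cells and 20.7% in XO cells. The 32 shore cytosines farther than 75 bases from a site averaged 4.59% and 20.3%. Shore cytosines far from the run lay closer to their read start than those near it, and the part of this in the levels by distance was not tested.

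**Figure D2:**
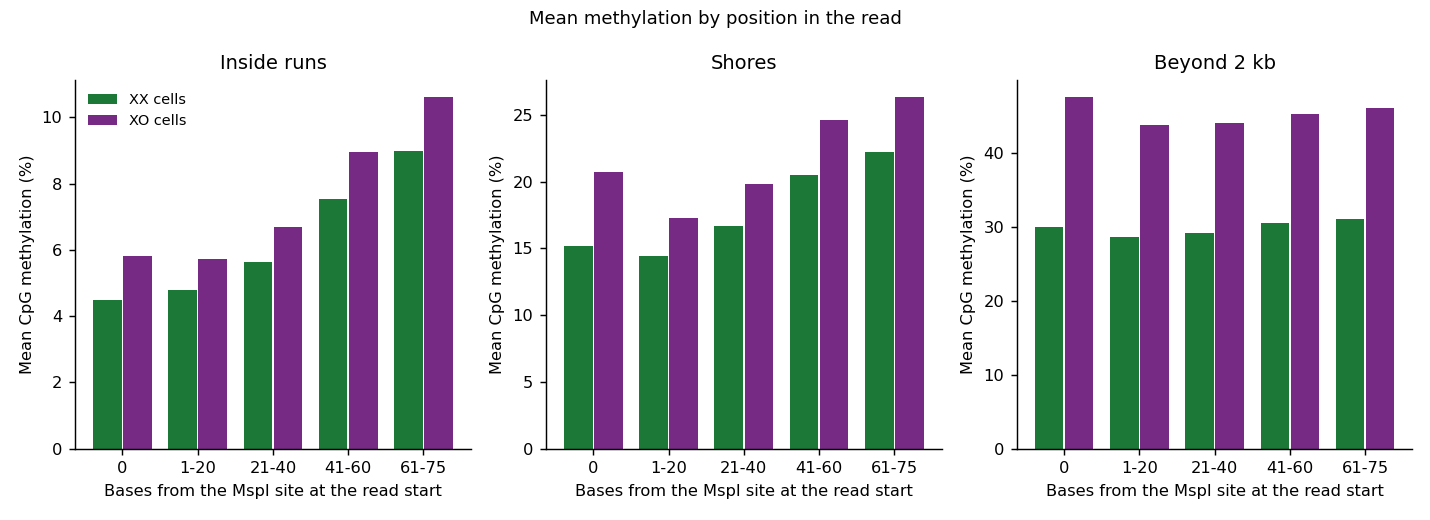
Mean CpG methylation (%) in XX and XO cells by the number of bases between a cytosine and the MspI site at its read start, inside runs, in shores and beyond 2 kb (bars start at 0; 1 library each). Levels climb along the read in runs and shores, in shores from 14.4% to 22.2% in XX cells, and change little beyond 2 kb.

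Restricting the shores to cytosines in the MspI site, which all sit at the same place in a read, kept the order of the libraries in all bins. The XX and XO means were then 7.87% and 10.3% at 50 to 100 bp, 14.0% and 17.9% at 400 to 500 bp, 18.9% and 26.9% at 900 to 1000 bp and 24.5% and 37.5% at 1800 to 1900 bp. The difference was -2.44 points in the first of these bins and -12.9 points in the last. XX cells kept 76.3% of the XO level in the first bin, 81.6% in the next, 63.9% at 1400 to 1500 bp, the lowest, and 67.4% in the last, where the difference was -11.5 points. Counting each read start once gave 83.9% in the first bin and 70.5% in the last.

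**Figure D3:**
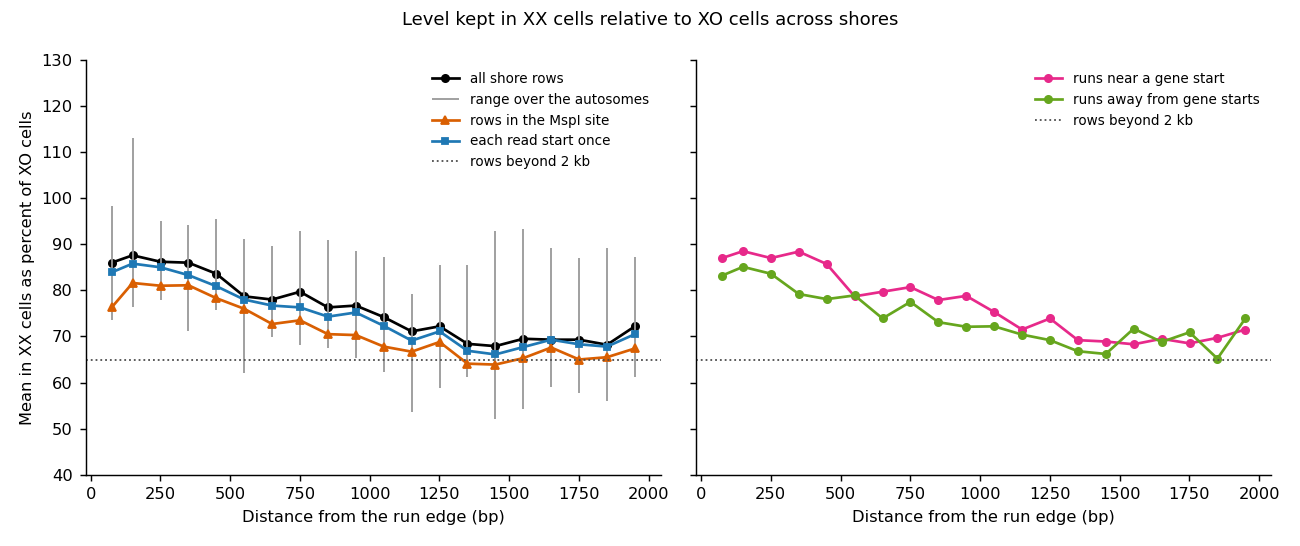
Mean in XX cells as percent of the mean in XO cells against distance from the run edge (bp). Left, all shore cytosines with their range over 19 autosomes, those in the MspI site, and each read start counted once; right, runs near and away from gene starts. For all cytosines the share kept is 86.0% in the first bin, lowest at 67.9% at 1400 to 1500 bp and 72.2% in the last bin, and the dotted line is the 64.9% beyond 2 kb.

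CpG density and distance both went with the level. Among cytosines with 1 to 4 CpGs within 100 bp, the means climbed from 20.7% in XX cells and 25.8% in XO cells at 50 to 200 bp to 30.3% and 43.8% at 1000 to 2000 bp, and were 36.0% and 54.5% beyond 2 kb. With 5 to 8 CpGs they went from 17.6% and 21.3% to 22.8% and 33.3%. With 9 to 12 CpGs they were 15.3% and 17.6% near the edge and 17.4% and 23.9% far from it. With 13 or more CpGs they hardly moved, from 13.8% and 15.5% to 14.8% and 18.2%, and were 16.7% and 23.9% beyond. At a fixed distance sparser CpGs were higher in both libraries in all 4 distance classes. XX cells kept 80% of the XO level at the sparsest CpGs near the edge and 69.1% of it at 1000 to 2000 bp, and at the densest CpGs 89.3% and 81.1%. In the MspI site alone, the densest CpGs went from 7.86% and 9.59% to 9.93% and 13.6%, and the sparsest from 18.4% and 23.5% to 28.2% and 42.3%.

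**Figure D4:**
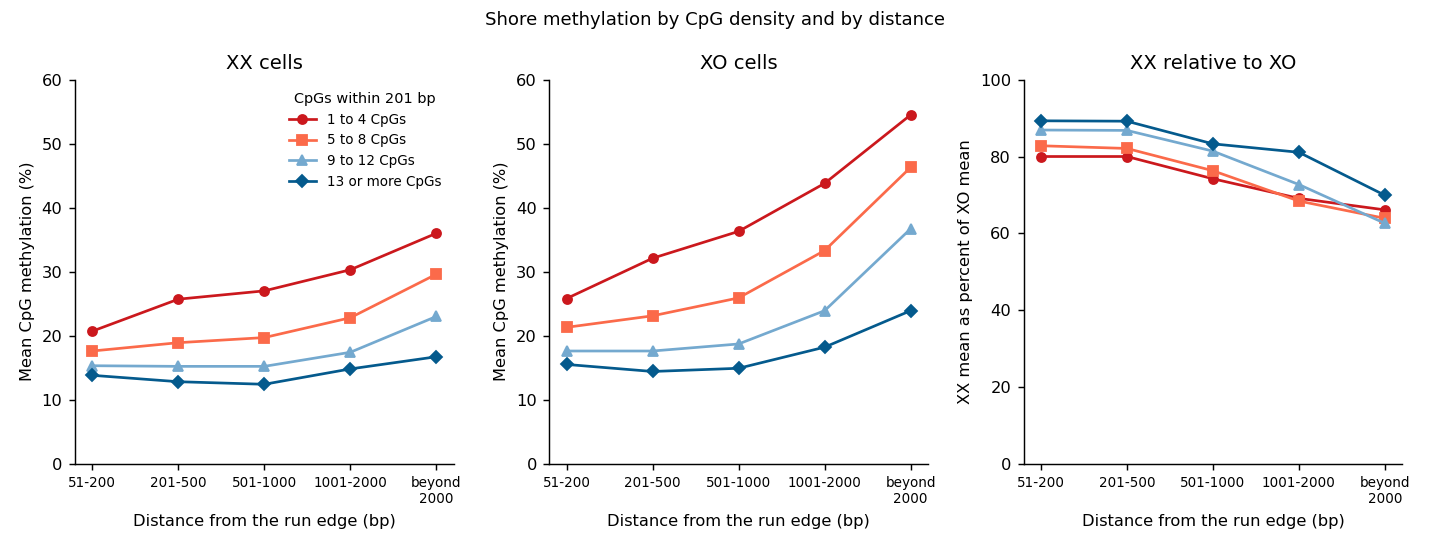
Mean CpG methylation (%) in XX cells (left) and XO cells (middle), and XX as percent of XO (right), by distance from the run edge (bp) for cytosines with 1 to 4, 5 to 8, 9 to 12 and 13 or more CpGs within 100 bp. At every distance sparser CpGs are more methylated, and the sparsest reach 30.3% and 43.8% at 1000 to 2000 bp.

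Shores of runs near a gene start were less methylated than those of other runs close to the edge, and not far from it. Over all distances the 118504 near cytosines averaged 16.5% in XX cells and 20.1% in XO cells (-3.59 points), and the 41961 away cytosines 17.8% and 23.1% (-5.23 points). XX cells kept 82.2% and 77.3% of the XO level. The difference was smaller near gene starts on 17 of 19 autosomes, though the autosome ranges overlapped (-4.39 to -2.17 near, -7.24 to -3.13 away). At 50 to 100 bp the near means were 12.6% and 14.5%, and the away means 14.5% and 17.5%. At 900 to 1000 bp the near means were 20.2% and 25.6%, and the away means 18.7% and 26.0%. At 1900 to 2000 bp the near means were 25.8% and 36.1%, and the away means 24.4% and 33.1%. In XO cells the near shores were lower in 10 of 10 bins up to 1 kb and in 0 of the last 5, and in XX cells in 8 of 10 and 0 of 5.

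Within classes of CpG density and distance the order was less even. Near shores were lower in XX cells in 11 of 16 such classes, and in XO cells in 14. At 50 to 200 bp with 5 to 8 CpGs within 100 bp, near shores averaged 17.2% in XX cells and 20.1% in XO cells, and away shores 18.6% and 23.9%. At 1000 to 2000 bp in the same density class they were 22.6% and 33.1% near, and 23.0% and 33.6% away. With 13 or more CpGs at 50 to 200 bp they were 13.6% and 15.3% near, and 14.7% and 16.1% away. From 200 bp on, this densest class was the other way round in XX cells, at 12.9% near and 12.6% away at 200 to 500 bp, 12.7% and 11.8% at 500 to 1000 bp, and 15.3% and 14.0% at 1000 to 2000 bp, where the XO means were 18.5% and 17.8%. The XX order was also opposite at 200 to 500 bp with 9 to 12 CpGs (15.4% near, 14.7% away) and at 1000 to 2000 bp with 1 to 4 CpGs (30.7% and 29.2%), where the XO means were 43.9% and 43.6%.

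Upstream and downstream shores differed little. For runs whose gene starts within 1 kb all lie on 1 strand, the upstream cytosines averaged 16.9% in XX cells and 20.6% in XO cells (-3.67 points), and the downstream ones, on the side into which the gene is transcribed, 15.9% and 19.5% (-3.56 points). Upstream levels were higher in 17 of 20 bins in XX cells and in 16 of 20 in XO cells, but the difference was smaller upstream in 7 of 20 bins and on 8 of 19 autosomes. Shores of runs with gene starts on both strands averaged 17.0% and 20.4%. Shores of isolated runs, with no other run within 4 kb, averaged 17.4% and 21.6%.

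Levels differed modestly between parts of genes. Intron cytosines, 39% of the shores, averaged 16.7% in XX cells and 20.6% in XO cells, and intergenic ones 17.6% and 21.6%. Those in UTRs were lowest, at 14.7% and 17.4%. Coding exons were highest over all distances, at 19% and 24.9%. At 1000 to 2000 bp they were at 22.3% and 33.4%, introns at 23.3% and 32.8% and intergenic cytosines at 23.0% and 32.2%. In soft-masked repeats, which hold 4.65% of shore cytosines, the means were 20.2% and 26.4%, against 34.8% and 54.8% for repeats beyond 2 kb.

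Shores beside methylated runs were themselves more methylated. Beside runs with an XO mean under 10%, the shores averaged 16.2% in XX cells and 19.8% in XO cells, and beside runs at 10% to 30% they averaged 17.8% and 22.3%. Beside runs at 30% to 50% they averaged 23.3% and 31.8%. Beside the 119 runs at 50% or more in XO cells, 104 of them away from gene starts, the 858 shore cytosines averaged 32.5% and 48.1%. The 709 of them beside away runs averaged 35.1% and 53.3%, and those beside near runs 20.3% and 23.4%, close to the near shores of runs at 30% to 50% (19.3% and 23.8%). At 50 to 200 bp from those runs the means were 33.9% and 54.4%. The XO level chose these runs, so the difference beside them is a description of runs picked for a high XO value. Over 10748 sides a side and its run correlated at 0.0940 in XX cells and 0.171 in XO cells, on points that share libraries and depth.

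Shore sides varied widely around these means. Of 15685 sides with a listed cytosine, 10748 had at least 5, with a median of 13.7% in XX cells and 17.7% in XO cells and a median difference of -2.78 points (quartiles -9.66 and 1.5). XX cells were lower on 65.2% of the sides. They were lower by 20 points or more on 912 sides (8.49%), against 31.5% of 75255 windows of 2 kb over the autosomes, and higher by 20 points or more on 222 sides (2.07%), against 0.361% of those windows. Sides and windows are unlike units, since a window can pool run, shore and farther cytosines. They were not matched for length or read starts. Of the 222, 125 (56.3%) rested on 1 read start, as did 181 (19.8%) of the 912 and 9.09% of all sides. Sides with a median distance over 500 bp were lower by 20 points in 12.9% of cases and higher in 0.550%, and those up to 500 bp in 6.54% and 2.73%. With the cytosines of the MspI site alone, 171 of 3332 sides were lower by 20 points and 4 were higher. Across 1885 runs with both sides listed, the sides' levels correlated at -0.00695 in XX cells and 0.0689 in XO cells, and their differences at 0.0721. The level on one side of a run thus said little about the level on the other.

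**Figure D5:**
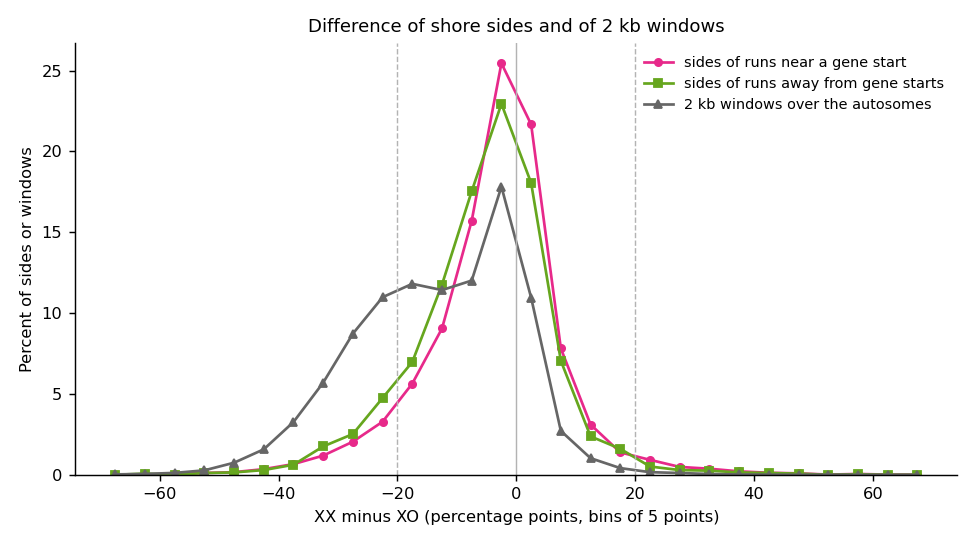
Distribution of XX minus XO (percentage points, bins of 5 points) over shore sides of runs near and away from gene starts and over 2 kb windows of the autosomes, each as percent of its total. Dashed lines mark 20 points. A window can pool run, shore and farther cytosines, so sides and windows are unlike units. Shore sides gather around -2.78 points, while windows have a second shoulder at larger negative differences and fewer values above 20 points.

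The sides named here were the extremes of the same measurement, among 6111 sides with at least 10 cytosines and at least 3 on each strand, so their values are descriptions. Only 3303 of the 6111 had the same sign on both strands, and the largest negative and positive differences were taken from those. The largest negative difference with the same sign on both strands lay before a run at the start of Tmem206, which encodes an acid-activated chloride channel (chr1:191324159-191325921, 15 cytosines from 6 read starts, 13 of them intergenic). It averaged 15.8% in XX cells and 70.0% in XO cells, with rows of 9.09% to 39.5% in XX cells all under those of 50% to 90.9% in XO cells. The run itself averaged 12% and 25.6%. The Rbm15b shore, in a coding exon, averaged 7.14% and 60.5%, next to a run of 266 cytosines at 5.0% and 6.03%. The Crybg3 shore, in an intron, averaged 22.0% and 67.2% beside a run at 1.21% and 0.227%.

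The other 7 of the 10 largest negative differences lay mostly inside genes. In a Cfhr3 intron (chr1:139641648-139641773) the means were 23.7% and 76.5%, with 9 of 10 cytosines in repeats. In a coding exon of Heg1, a receptor gene of cardiovascular development (chr16:33726305-33726642), it was 32% and 75.1%, and the strands gave -40.5 and -45.5 points. At chr5:35281124-35282471, partly in a coding exon, it was 26.9% and 68.1%. In coding exons of Kmt2b, a histone H3K4 methyltransferase gene (chr7:30583715-30584995), it was 37.1% and 75.7%. In the UTR of Tfap2c, a transcription factor gene of trophoblast and germ cells (chr2:172550884-172550957), it was 31.1% and 68.2%, next to a run at 4.40% and 6.55%. In a coding exon of Pxdn, a peroxidase gene of the basement membrane (chr12:30003032-30003409), it was 38.7% and 74.5% over 19 cytosines from 8 read starts. In an intron of Glce, an enzyme gene of heparan sulphate synthesis (chr9:62121611-62122062), it was 18.9% and 53.8%. Of these 10 sides, 6 rested on 2 or 3 read starts.

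The 5 largest positive differences rested on 2 to 4 read starts each. The Ripk4 shore averaged 47% in XX cells and 15% in XO cells over 2 read starts, and the Prrx1 intron 45.4% and 16.7% over 3. In an intron of Sppl3, a Golgi protease gene (chr5:115012069-115012373), the mean was 41.5% and 10.5% over 4 read starts. The Ndufb2 shore averaged 41.7% and 15.9%, with a strand difference of 0.0144 points for forward and 51.6 points for reverse cytosines. In the UTR of Rgl1, an exchange factor gene for Ral GTPases (chr1:152766172-152766276), it was 26.0% and 2.22% over 2 read starts. All 5 had a median distance under 400 bp from the run edge, and 4 lay beside runs under 10% in both libraries.

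A few shores were highly methylated in both libraries beside unmethylated runs. The highest XO mean beside a run under 10% in both libraries was in Fam110a (chr2:151969547-151970312, coding exon and UTR), at 56.5% in XX cells and 86.9% in XO cells, with the run at 8.54% and 6.52%. An intronic shore of Rasgef1b (chr5:99728273-99728599) averaged 58.6% and 85.1%, over 2 read starts whose strands gave -53.8 and 14.6 points. The shore before the run at Sdhaf3, an assembly factor gene of succinate dehydrogenase (chr6:6954139-6955658), averaged 49.1% and 78.1%. Beside Smad3, a mediator gene of TGF-beta signalling (chr9:63759173-63759446), the libraries were closest, at 61.3% and 71.2%. Over all 10748 sides, 970 were at 50% or more in XO cells, 476 in XX cells and 290 in both.

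Gene groups were read through the shores of runs within 1 kb of their starts. Over 6510 protein-coding genes with at least 5 shore cytosines, the medians were 14.8% in XX cells and 18.4% in XO cells, with a median difference of -2.96 points. XX cells were lower at 4390 and higher at 2082, by 20 points or more at 383 and 88. The groups below hold 5 to 13 such genes, so they are given by their counts and nothing is read from them beyond these.

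Naive pluripotency genes, the transcription factors and RNA-binding proteins of the ground state, had shores in 8 genes, lower in XX cells in 7, with a median difference of -2.47 points. Prdm14, a repressor of de novo methylation, was the exception, at 20.1% in XX cells and 14.9% in XO cells over 51 cytosines. Its forward cytosines gave 9.08 points and its reverse ones 0.418 points. Lin28a, a regulator of let-7 processing, was at 12.9% and 13.9%. The T-box gene Tbx3 was at 11.1% and 11.2%, and Klf2 was at 43.8% and 46.5%, the highest of the group. The strands differed in sign at Lin28a (-6.67 points forward, 3.42 reverse), Tbx3 (0.931 and -2.24) and Klf2 (-15.3 and 2.75). None of the 8 differed by 20 points.

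Early lineage regulators, the transcription factors that are silent or low in naive cells and act at gastrulation, had shores in 13 genes, 8 lower and 5 higher in XX cells. Their median difference was -0.959 points, although the median level was higher in XX cells (14.9%) than in XO cells (14.1%). Lhx1 had the most shore cytosines, 64, at 16.0% and 23.3%. Gsc had 56, at 21.5% and 28.7%, but its forward strand gave -18.9 points and its reverse strand 8.38 points. The trophectoderm gene Cdx2 was at 6.82% and 8.05%, and T (brachyury) at 16.2% and 15.2%. The edge of the Gsc run is printed because cytosines were listed on both sides of it. In chr12:104472539-104472738 (forward strand, GRCm38, listed cytosines in capitals as above) the 8 listed cytosines outside the run averaged 2.94% in XX cells and 7.80% in XO cells, and the 13 inside it 4.51% and 1.54%.
Gsc: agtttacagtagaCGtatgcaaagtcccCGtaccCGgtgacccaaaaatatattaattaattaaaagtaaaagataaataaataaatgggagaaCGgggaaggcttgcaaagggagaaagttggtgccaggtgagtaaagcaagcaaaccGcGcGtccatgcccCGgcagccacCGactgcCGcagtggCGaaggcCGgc

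Germ cell genes, which DNA methylation keeps silent in somatic cells, had shores in 5 genes, 4 of them lower in XX cells, with a median difference of -17.3 points. At Dazl, an RNA-binding protein of germ cells, all 15 shore cytosines (chr17:50294066-50294238, 6 read starts) were lower in XX cells. They ran from 9.09% to 40.7% with a median of 21.7% in XX cells, and from 21.4% to 94.1% with a median of 53.3% in XO cells, so the ranges overlapped, with means of 23.2% and 57.8% and strand differences of -45.2 and -25.3 points. The run beside it was at 7.72% and 10.9%. At Tdrd5, a gene of transposon silencing in the germ line, the means were 5.40% and 22.7% over 37 cytosines, with -27 points from reverse and 0.661 points from forward cytosines. Hormad1, a gene of meiotic chromosome axes, was at 20.1% and 26.7%. Slc25a31, a testis ADP/ATP carrier, was at 31.3% and 26.3%, the only gene of the 5 that was higher in XX cells.

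Genes of the DNA methylation machinery went both ways, 3 lower and 2 higher of 5. Tdg, the glycosylase that removes oxidised methylcytosine, was at 31.5% in XX cells and 6.29% in XO cells, but all its 20 shore cytosines lay on the reverse strand, from 2 read starts. Uhrf1, which brings DNMT1 to replicating DNA, was at 19% and 13% and higher on both strands. Mbd1 (23.5% and 36.4%) and Mbd3 (27.7% and 32.1%), of the methyl-CpG binding domain family, were lower. Mbd3 gave -5.39 points from forward and 0 points from its 3 reverse cytosines. The other lower gene, the de novo methyltransferase Dnmt3b, named after its values were seen, was at 32.9% and 52.2% over 15 cytosines, 13 of them lower in XX cells. Of 5 maternally methylated imprinted genes 3 were lower and 2 higher. Their shores lie beside runs at the annotated gene starts, and whether those runs fall in the imprinted methylated regions was not checked. By gene, the runs averaged 7.29% to 28.0% in XO cells. The shores of Zrsr1 were at 27.7% and 38.6%, of Nnat at 23.2% and 26.9%, of Grb10 at 15.6% and 14.7% and of Inpp5f at 26.0% and 25.4%. In these 4 the strands differed in sign. The fifth, Plagl1, named after its values were seen, was at 23.9% and 44.5% over 6 cytosines, with -23.3 points from forward and -7.14 points from the only reverse cytosine.

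Housekeeping genes were the comparison group, and 3 of 5 were lower in XX cells, with a median difference of -6.49 points. Actb was at 16.3% in XX cells and 23.1% in XO cells, Polr2a at 25.3% and 24.7% and Psmb2 at 12.6% and 24.7%. Rps18 was at 37.6% and 27.5%, with 27.7 points from forward and -35.5 points from reverse cytosines. Among the named genes, differences of over 10 points thus occurred in both directions, and strands of 1 gene could disagree by more than that.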

How the data were processed

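RRBS was made from 2 libraries, XX and XO Xmas mESCs, with a kit for MspI fragments. Per the labels, the submitters' processing notes name bcl2fastq, Bismark and the mm10 build. The authors deposited the percent of methylated reads for 1782730 cytosines, with strands listed separately. How the table was filtered and its coverage are not given in the sources used here, so no intervals were computed.

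Runs, distances and sides were computed in Python 3.11.15 (numpy 2.4.6, pandas 2.3.3, matplotlib 3.10.9). Each shore cytosine went to its nearest run. Gene starts were those of GENCODE M21 genes of any type on GRCm38. CpG density, repeats and MspI sites came from the GRCm38.p6 reference. Sides needed 5 cytosines. Named sides needed 10, with 3 on each strand, and were the 10 largest negative and 5 largest positive differences with one sign on the strands, and the 4 highest in XO cells beside runs under 10%. Up to 4 genes a list, those with most shore cytosines, were named. Printed side sequences spanned at most 250 bases without a UTR. The members and lists were chosen with earlier results of these data known. The code was tested on simulated data. Alternatives changed the gap, the run size, the cytosines kept and the summary.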

Additional observations from a re-analysis of the deposited data

How the results depend on the processing

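With 1 library per karyotype no replicate could be left out, and no paired analysis was possible because there was only 1 XX and 1 XO library. A mean was taken to move when it changed by more than its SD over autosomes, and a count when it changed by more than 1.5 times. Of 87 recalculated values of the 6 main results, 51 kept within these limits and 36 moved. Of the 87, 73 were mean differences, and all 73 stayed below 0. The others were counts of sides, which have no sign to change. The difference at 1900 to 2000 bp (-9.73 points) kept within its SD in all alternatives, which ran from -13.3 to -8.39 points. That SD was 3.57 points, against 0.513 points for shores as a whole, so its limit was the wider one.

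The definition of a run moved the size of the difference most. Shores as a whole, near runs and away runs gave -5.28, -4.62 and -6.92 points with gaps up to 100 bp, -2.77, -2.53 and -3.63 with gaps up to 30 bp, -2.64, -2.52 and -3.14 with at least 40 cytosines a run, and -7.92, -5.62 and -10.8 with at least 10. The first bin gave -5.57 with at least 10, and no value with gaps up to 100 bp, which leave no cytosine there. Counting each side once gave -5.24, -4.77 and -6.64. Without cytosines at 0% or 100% in both libraries, shores gave -4.84 and near runs -4.37. Medians gave -3.0 for shores, -2.31 for near runs and -1.11 in the first bin. Runs under 10% in both libraries gave -3.94 for away runs and -3.55 for near runs, the latter within its limit.

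Alternatives chosen after seeing the data were the MspI site alone (-5.44, -4.89 and -6.89), each read start counted once (-5.20, -4.66 and -6.60) and cytosines within 20 bases of the read start.

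The 912 sides lower by 20 points were 8.49% of the sides counted. With at least 40 cytosines a run they became 414 (5.72%), and with at least 10 they became 2148 (17.0%). Isolated runs gave 538 (8.78%) and runs under 10% gave 533 (7.63%), so there the count moved more than the share. The MspI site alone gave 171 (5.13%), and cytosines within 20 bases of the read start gave 425 (5.87%). There were 333 with 10 cytosines a side and 287 at 30 points. Fewer sides could be counted in most of these. Of 86 recalculated differences of named sides, 0 changed sign and 4 moved by over 10 points. Most of these sides were chosen for large differences with one sign on the strands, and the recalculations reused the same cytosines. The lack of sign changes is therefore no support for them.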
